A study of Sus scrofa with 32 samples.

Results

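The cells described here are T cells of the pig ileum that carried transcripts of PDCD1, the gene of the PD-1 receptor, and that are labelled follicular helper-like. They were selected on the UMIs (molecules counted by unique molecular identifier) of 7 genes among cells that passed the study's stated filters on UMIs, genes (at least 550) and mitochondrial share. A member had at least 1 UMI of CD3E, which encodes a chain of the T cell receptor complex, and at least 1 UMI of PDCD1, with none of CD8B, TRDC, CD79B, TOP2A or EPCAM, genes of CD8 αβ T cells, γδ T cells, B cells, dividing cells and epithelium. The rule found 1104 members among 35386 ileal cells (48629 cells with blood included). They numbered 311 and 268 in Peyer's patch tissue of pigs 1 and 2, 57 and 96 in tissue without Peyer's patches, and 253 and 119 in whole ileum. Because PDCD1 and the 6 other genes chose the cells, their levels are given as a description and were not tested.

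Single-cell RNA sequencing (10x Genomics Chromium 3′ v2) had been performed on terminal ileum and peripheral blood of 2 mixed-breed pigs aged 7 weeks, a female (pig 1) and a male (pig 2). Ileum was dissected into a part with Peyer's patches (PP), a part without them (non-PP) and a whole cross-section (whole ileum), and peripheral blood mononuclear cells (PBMC) were prepared from the same animals. No group was treated. By the labels each tissue of each pig gave 1 library, so n = 2 pigs for every tissue, and p-values measure only the spread between these animals. Epithelium, lamina propria and submucosa entered the ileal suspensions together, and dead cells had been removed, so a share of cells depends on how each tissue was released. Total UMIs per library were 40111934 and 33166907 in PP, 24664414 and 21134542 in non-PP, 28055545 and 33595294 in whole ileum, and 36465389 and 38240907 in PBMC. A member held a median of 2254 and 2081.5 UMIs in PP, 2553 and 2401.5 in non-PP, and 2066 and 1837 in whole ileum.

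The library labelled whole ileum of pig 1 stood apart from the sex given for that animal. UMIs of the Y-linked genes DDX3Y, EIF1AY, KDM5D and ZFY made up 0.161 and 0.224 CPM (UMIs of the genes over all UMIs summed, scaled to 1000000) in the PP and non-PP libraries of pig 1 and none in its PBMC library, but 207 CPM in the library labelled whole ileum of pig 1. That value lay among the 185 to 226 CPM of the ileal libraries of pig 2, and 42.3% of the 253 members in the library had a Y-linked UMI. Counts of calls, shares of members, levels by PDCD1 count and values by FOXP3 are therefore also given without this library, and genes that lost their call without it are named as such. Both whole ileum libraries thus carried Y-linked UMIs, and that they came from a female and a male pig rests on their labels alone. Between 0.556% and 1.23% of the cell barcodes of the smaller library were shared by any pair of libraries.

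PD-1 is an inhibitory receptor that T cells display after antigen contact and, at high density, on follicular helper T cells. Those are CD4 T cells that enter B cell follicles through the chemokine receptor CXCR5 under the transcription factor BCL6, and help B cells through CD40 ligand, the receptor ICOS, the SLAM-associated adaptor SAP (SH2D1A) and the cytokine IL-21. Peyer's patches are lymphoid tissue of the gut wall in which such follicles form, and in young pigs they run continuously along the terminal ileum.

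The T cell identity of the members was plain, whereas the helper label held unevenly. CD3G and CD3D, chains of the T cell receptor complex that the rule did not use, had a UMI in 86.1% and 63.4% of members, against 8.19% and 3.55% of CD79B-positive, CD3E-zero cells, which should lack them and served as the background. CD40LG was found in 32.5% of members (15.8% to 35.3% over the 6 ileal libraries) and in 0.334% of the background cells. ICOS was found in 39.0% (22.8% to 48.2%) against 1.28%. The background cells were no shallower, with medians of 2776 to 4160 UMIs per library. CD4 itself gave a UMI in 26.7% of members (14.0% to 33.1%) and in 0.368% of background cells, and CD8A, which the rule allowed, in 30.9% (16.8% to 42.7%, highest in the 2 non-PP libraries). In the 851 members left without the library labelled whole ileum of pig 1, the shares were 85.8% for CD3G, 63.5% for CD3D, 32.1% for CD40LG, 39.2% for ICOS, 27.5% for CD4 and 30.0% for CD8A.

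CD40LG and ICOS were found in larger shares of members than of gated cells without PDCD1, and in like shares of members and of PDCD1-zero T cells that had a CD4 UMI. Gated cells with no PDCD1 UMI, 4871 in all, had CD40LG in 11.3% and ICOS in 12.8%. The 288 of these that had a CD4 UMI and no CCR7 UMI (PDCD1-zero CD4 T cells) had CD40LG in 34.7% and ICOS in 32.3%. Defining genes of follicular helpers were sparse at this depth. CXCR5 had a UMI in 12.8% of members (0% to 16.1%), against 8.81% of background cells, which as B cells express it, and 2.78% of PDCD1-zero CD4 T cells. BCL6 had a UMI in 10.1% of members, 9.72% of PDCD1-zero CD4 T cells and 20.7% of the B cell background. IL21 was seen in 23 members (2.08%) and IL4 in none, which for 1104 cells allows a share of cells with an IL4 UMI of up to 0.272%. At this depth such a limit bears on cells with a UMI and not on cells that express the gene. Of the 288 PDCD1-zero CD4 T cells 8 had an IL21 UMI (2.78%) and 1 an IL4 UMI (0.347%), so neither cytokine was found in a larger share of members. ASCL2, a transcription factor that induces CXCR5, was seen in 31 members (2.81%), in 2 of the 4871 gated PDCD1-zero cells and in none of the 288 PDCD1-zero CD4 T cells, which allows a share with a UMI of up to 1.04%. The ASCL2-positive members numbered 11 and 9 in PP, 9 and 2 in whole ileum, and none in non-PP. Without the library labelled whole ileum of pig 1, CXCR5 had a UMI in 11.9% of members and 2.62% of PDCD1-zero CD4 T cells, BCL6 in 10.6% and 10.5%, IL21 in 1.88% and 3.06%, and ASCL2 in 2.59% of members.

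The share of members among gated T cells was higher in PP than in non-PP in both pigs. Members made up 31.4% of gated T cells in PP of pig 1 (95% Clopper-Pearson interval 28.5% to 34.3%) and 28.9% in PP of pig 2 (26.0% to 31.9%). They made up 4.55% (3.46% to 5.85%) and 9.46% (7.73% to 11.4%) in non-PP, and 23.1% (20.6% to 25.7%) and 17.2% (14.4% to 20.2%) in whole ileum. The intervals, which cover counting error only, did not overlap between PP and the other ileal libraries. Means were 30.1% ± 1.73 in PP, 7.0% ± 3.47 in non-PP and 7.11% ± 4.02 in PBMC (SD, n = 2 pigs each). None is given for whole ileum, where the Y-linked UMIs leave it unsure that the libraries are of 2 pigs as labelled. PP exceeded non-PP by 26.8 percentage points in pig 1 and 19.5 in pig 2, a mean of 23.1. This share counts what the rule picked and is given as a description, and a two-sided exact permutation test of 2 libraries against 2 could not give a p below 0.3333. With each cell thinned to the lowest number of UMIs that the filter allowed, the shares were 19.8% ± 0.432 in PP and 3.69% ± 1.67 in non-PP, a difference of 16.1. Among all cells of a library, which in PP were mostly B cells, members were 4.07% in PP and 2.00% in non-PP.

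**Figure D1:**
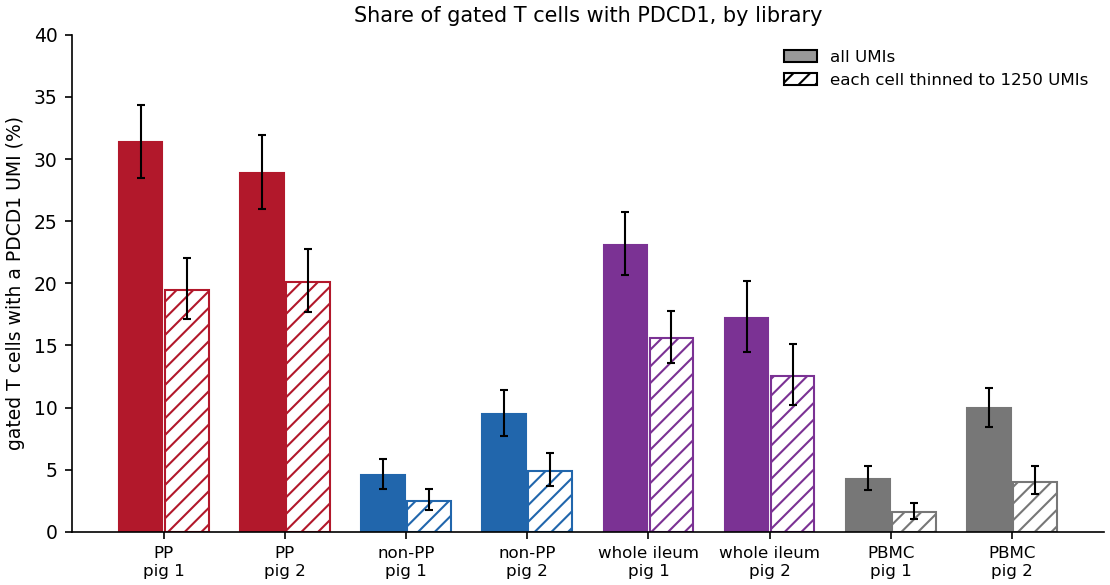
Share of gated T cells that had a PDCD1 UMI (%, vertical axis) in each library, with all UMIs (filled bars) and with every cell thinned to the lowest number the filter allowed (hatched bars). Error bars are 95% Clopper-Pearson intervals. Both PP libraries stand near 30%, the whole ileum libraries at 23.1% and 17.2%, and the non-PP and PBMC libraries under 10%.

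In PP and whole ileum the share was above the level that free RNA gave. PDCD1 had a UMI in 2.71% and 2.53% of the CD79B-positive, CD3E-zero cells of PP, in 0 of 28 and 1 of 65 of those of non-PP, and in 1.52% and 2.79% of those of whole ileum. The upper bounds of the 95% intervals in non-PP were 12.3% and 8.28%, so the background there could not be resolved from the members' share at this number of cells. With these background cells thinned as the T cells were, the means were 0.980% in PP and 0.823% in whole ileum. In PBMC, where 4.26% and 9.95% of gated T cells had PDCD1, 0.25% and 0.393% of background cells did. CD8B-positive T cells carried PDCD1 at a mean of 10.2% in PP and 7.23% in non-PP, and TRDC-positive T cells at 9.45% and 3.67%, so the difference between PP and non-PP in these classes was 3.00 and 5.78 percentage points. Scores of simulated doublets marked 4 and 3 members of PP, none and 3 of non-PP and none of whole ileum, and the difference was 23.0 without marked cells. At the score threshold used only 25.6% to 42.4% of simulated doublets were marked in the ileal libraries, so unmarked doublets can remain among members.

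Members were not uniform in PDCD1, and the tissues differed in this too. Of the 1104 members 608 had 1 PDCD1 UMI, 208 had 2 and 288 had 3 or more. In PP, 108 of 311 and 76 of 268 members had 3 or more, and in whole ileum 71 of 253 and 29 of 119. In non-PP only 3 of 57 and 1 of 96 did. The summed level of PDCD1 in members, which the rule fixed above 0, was 821 and 834 CPM in PP, 405 and 440 in non-PP and 860 and 811 in whole ileum.

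SH2D1A, CXCR5, CD40LG and LTB were higher, and GZMB lower, in each group of cells with PDCD1 UMIs than in cells without, when the gated cells of the 6 ileal libraries were summed by pig. The cells without were all 4871 gated PDCD1-zero cells, a mixed class with a CD4 UMI in 8.21% and a CD8A UMI in 48.1%. Of members 26.7% and 30.9% had these. The part of this mixture in the levels was not tested, and comparisons with PDCD1-zero CD4 T cells alone are given below. Among the cells with PDCD1 not every step went the same way. In cells with 0, 1, 2, and 3 or more PDCD1 UMIs, SH2D1A stood at 68.4, 258, 393 and 579 CPM in pig 1 and at 57.6, 202, 421 and 403 in pig 2. CXCR5 stood at 6.84, 39.7, 59.4 and 117 in pig 1 and at 8.01, 39.2, 50.1 and 66.6 in pig 2. CD40LG stood at 58.3, 167, 218 and 215 in pig 1 and at 81.2, 180, 250 and 290 in pig 2. LTB, the membrane lymphotoxin that shapes follicles, was 203, 510, 659 and 1311 CPM in pig 1 and 193, 399, 817 and 1339 in pig 2. The granule protease gene GZMB stood at 9297, 2351, 305 and 430 in pig 1 and 8996, 2749, 741 and 376 in pig 2. BCL6 was 28.1, 38.5, 42.4 and 37.3 in pig 1 and 27.8, 53.7, 50.1 and 33.3 in pig 2, so that its groups with PDCD1 also lay above the cells without. The BCL6 level of the group with 3 or more UMIs lay below those with 1 and 2 in both pigs, here and in PP alone. In PP alone, which leaves out the library with Y-linked UMIs, LTB was 378, 546, 550 and 1379 in pig 1 and 388, 627, 1069 and 1356 in pig 2. There SH2D1A was 112, 299.97, 409 and 658 in pig 1 and 81.2, 275, 554 and 433 in pig 2, and CXCR5 was 15.4, 53.8, 58.5 and 96.5 and 13.2, 61.1, 79.2 and 63.2. CD40LG in PP was 84.1, 170, 219 and 204 and 98.1, 159, 238 and 277, GZMB 4251, 727, 219 and 111 and 4348, 1516, 538 and 92.3, and BCL6 31.9, 42.4, 53.6 and 36.9 and 22.9, 42.8, 55.4 and 29.2. In PP too the groups with PDCD1 all lay above the cells without it for SH2D1A, CXCR5, CD40LG, LTB and BCL6 and below for GZMB. These values share libraries and cell depth with the grouping gene, and no test was made of them.

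**Figure D2:**
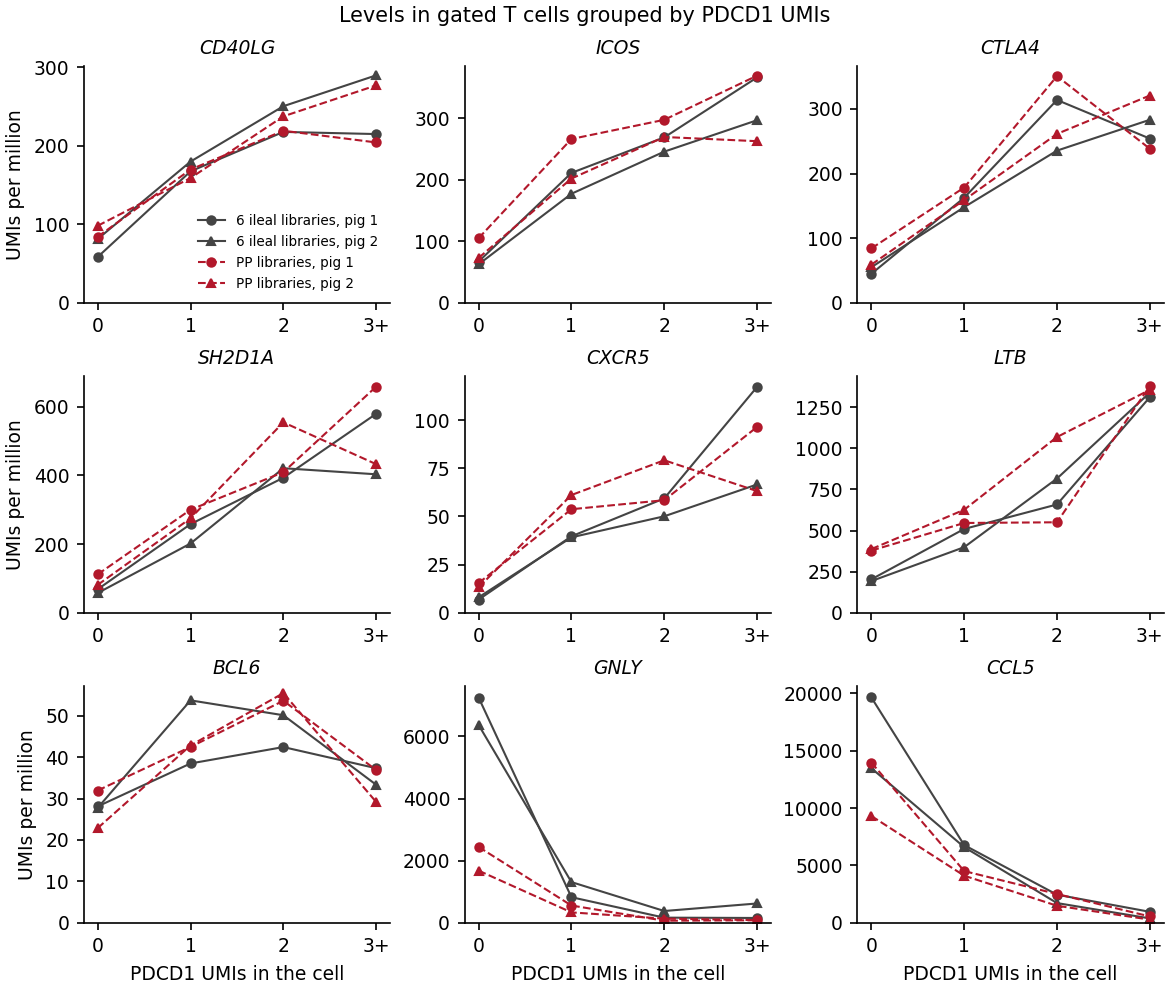
Summed CPM (vertical axis) of 9 genes in gated T cells with 0, 1, 2, or 3 and more PDCD1 UMIs (horizontal axis), for all 6 ileal libraries (solid lines) and PP alone (dashed lines), in pig 1 (circles) and pig 2 (triangles). LTB, SH2D1A and CXCR5 lie above their level at 0 UMIs in every group with PDCD1, and GNLY and CCL5 below it. The cells at 0 UMIs are all gated PDCD1-zero cells, few of which had a CD4 UMI.

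Against CCR7-positive T cells, 500 gated cells with a UMI of the lymph node homing receptor CCR7 and none of PDCD1, the members were higher in 6 of 12 costimulatory and inhibitory receptors and lower in 5 of 7 genes of naive and circulating T cells. Sums per pig were compared by edgeR over 7702 genes, with CD8B-positive and TRDC-positive T cells in the same fit. At an adjusted p under 0.05, 147 genes were higher in members (1.91% of those tested) and 270 lower (3.51%). With pig as a replicate block the counts were 280 and 441, and without the library labelled whole ileum of pig 1 they were 33 and 89. Sums per pig and the block take that library as pig 1 by its label, which its Y-linked UMIs go against, and with the block and without the library the counts were 175 and 303. In summed cells a lower level cannot be told apart from fewer cells that express the gene.

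Of 12 costimulatory and inhibitory receptors tested, 6 rose and none fell, with a median log2 difference of 1.23 against 0.01 over all genes. TIGIT, an inhibitory receptor, was 124 and 103 CPM in members of pigs 1 and 2, against 12.2 and 2.93 in CCR7-positive cells (log2 3.59 ± 0.37 SE, adjusted p = 0.000281). CTLA4, the inhibitory counterpart of CD28, was 223 and 197 against 43.9 and 52.8 (1.88 ± 0.19, adjusted p = 0.00021). ICOS was 273 and 219 against 101 and 79.2 (1.20 ± 0.17, adjusted p = 0.00173). No pig's value in members overlapped the other class for these receptors. LAG3, CD200 and TNFRSF18 rose by log2 2.09, 1.57 and 1.52. The call of CD200 was lost without PP of pig 1 (1.00), PP of pig 2 (1.51) or the library labelled whole ileum of pig 1 (2.27), and that of TNFRSF18 without the last (1.49).

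Of the 15 transcription factors listed for follicular helpers, 4 rose, 2 fell and 9 did not pass. TOX was 184 and 135 CPM in members against 47.5 and 42.6 (log2 1.58 ± 0.20, adjusted p = 0.00082). MAF, which drives IL-21 and IL-10 in helper cells, was 144 and 143 against 58.5 and 32.3 (1.39 ± 0.23, adjusted p = 0.00388), a call lost without PP of pig 2 (1.29) or the library labelled whole ileum of pig 1 (1.32). IKZF3 and BATF rose by 1.19 and 1.17, the latter not past the threshold without PP of pig 2 (1.07). LEF1 and BACH2, both active in naive T cells, fell by 2.14 and 1.66, and BACH2 lost its call without PP of pig 2 (−2.02) or either whole ileum library (−1.44 and −1.30). BCL6, at 38.9 and 47.9 in members and 21.9 and 24.9 in CCR7-positive cells, did not pass (log2 0.64 ± 0.26, adjusted p = 0.222).

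Among ligands and cytokines of B cell help 3 of 9 rose and none fell. IFNG was 210 and 135 CPM in members and 40.2 and 24.9 in CCR7-positive cells (log2 2.15 ± 0.27, adjusted p = 0.000832). IL10, a cytokine that also acts on B cells, was 146 and 235 against 54.8 and 35.2 (1.81 ± 0.30, adjusted p = 0.00393), a call lost without the library labelled whole ileum of pig 1 (1.56). LTA rose by 2.49, a call lost without that library (1.87) or without PP of pig 1 (2.54). CD40LG, at 193 and 220 against 134 and 119, did not pass (0.46 ± 0.24, adjusted p = 0.344), and neither did LTB. CD40LG did pass with sums per library and library as a block (0.48). SLAM family members, through which T and B cells hold contact, gave 3 of 7 higher: SH2D1A at 391 and 289 against 96.3 and 82.2 (1.68 ± 0.17, adjusted p = 0.00021), SLAMF6 (1.59) and SLAMF1 (0.91). SLAMF6 was not called without PP of pig 2 (1.55) or the library labelled whole ileum of pig 1 (1.36). SLAMF1 was called without PP of pig 1 but in none of the 5 fits without another library (0.72 to 1.05), nor with DESeq2, upper-quartile factors, doublets removed, thinned cells or free RNA subtracted (0.66 to 0.96).

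Of 21 receptors of positioning and migration, 2 rose and 3 fell. CXCR5 was 69.1 and 47.9 CPM in members and 11.0 and 11.7 in CCR7-positive cells (log2 2.13 ± 0.46, adjusted p = 0.0181). That call was lost without PP of pig 2 (2.37) or the library labelled whole ileum of pig 1 (1.74). CXCR6, a receptor of tissue T cells, rose by 2.02, and ITGB7, a chain of gut-homing integrins, fell by 0.76, a call lost without either PP library or that labelled whole ileum of pig 1 (−0.44, −0.61 and −0.86). Of 7 genes of naive and circulating T cells 5 fell and none rose, with a median of −1.99. KLF2, the factor that keeps T cells in circulation, was 40.6 and 21.9 against 257 and 156 (−2.93 ± 0.27, adjusted p = 0.000166). Its target S1PR1 (−1.99), the receptor for exit from tissue, fell, as did LEF1 and IL7R (−1.59). The comparison cells were chosen on CCR7, a gene of the same kind, which was left out of the count.

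Further lists differed in part. Of 12 cytotoxic genes CCL5, a chemokine of effector T cells, rose and CTSW fell. CCL5 was 3990 and 4214 CPM in members against 1385 and 1406 (log2 1.31 ± 0.26, adjusted p = 0.0106), but the difference was −0.88 when only members with a CD4 UMI were summed, and the call was lost without the library labelled whole ileum of pig 1 (1.40). Of 14 early activation genes DUSP4 rose while DUSP2, NR4A1 and NR4A2, which follow recent receptor signals or handling of tissue, fell by 1.40, 1.31 and 0.66. Of 12 interferon-stimulated genes IFITM3 alone passed, and it fell. LAT and CD3G of the T cell receptor list rose by 0.58 and 0.53. Without the library labelled whole ileum of pig 1, CTSW (−1.17), DUSP4 (0.80), NR4A1 (−1.19), NR4A2 (−0.62), IFITM3 (−1.33), LAT (0.56) and CD3G (0.56) did not pass, and all of these but NR4A1 did not pass without PP of pig 2 either. Neither the 9 genes tested of other helper lineages nor the 11 of DNA replication and mitosis gave a call, the latter with TOP2A barred by the rule, and all 3 calls among 9 regulatory T cell genes were CTLA4, IL10 and TNFRSF18.

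B cell genes moved with this comparison. Of 9 B cell genes tested 5 were lower in members, among them CD83, MS4A1, HLA-DRA and CD74, with MS4A1 (−1.95) and HLA-DRA (−2.14) not past the threshold without the library labelled whole ileum of pig 1. The 12 listed B cell genes summed to 1095 and 1644 CPM in members and to 3738 and 2772 in CCR7-positive cells, with CD74 the most abundant in each (769 and 1117 against 2473 and 1811). Myeloid genes summed to 316 and 655 against 1300 and 1927, with CST3 the most abundant, and AIF1 and TYROBP were lower in members. The part of such transcripts in the 270 lower genes was not tested.

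The largest differences by the rule for named genes included several of these other cells. LYVE1, SAMD11, CCL21, GPX3 and CCDC122 had 1 to 3 UMIs in all CCR7-positive cells and CLEC12A 3 in members, so that their fitted values are imprecise. Besides TIGIT, the higher genes were LYVE1 (log2 6.0), SAMD11 (5.47), CCL21 (5.0), GPX3 (3.91), CCDC122 (3.89), ICA1 (2.95), AKAP5 (2.74), SLC1A5 (2.73), a glutamine transporter, and ITM2A (2.68), a membrane protein of activated T cells. LYVE1 and CCL21 are genes of lymphatic vessels, and single cells held them: 1 member of 57 in non-PP of pig 1 held all 43 LYVE1 UMIs of its library, 1 of 96 in non-PP of pig 2 all 94, and 1 of 311 in PP of pig 1 held 126 of 130 CCL21 UMIs. The lower genes were CLEC12A (−4.78), APOE (−4.51), AREG (−4.41), ANGPT2 (−3.76), ITGA5 (−3.33), AIF1 (−3.16), CXCL8 (−3.10), CKB (−3.02), RASA3 (−2.98) and YBX3 (−2.93). Without the library labelled whole ileum of pig 1, GPX3, AKAP5, SLC1A5, LYVE1 and CCL21 (2.96 to 5.84) did not pass, nor did CLEC12A, APOE (−1.90), CXCL8 (−2.54) and CKB (−2.87). CLEC12A, APOE, AIF1 and CXCL8 are known from myeloid cells, AREG encodes the growth factor amphiregulin and RASA3 a brake on Ras.

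**Figure D3:**
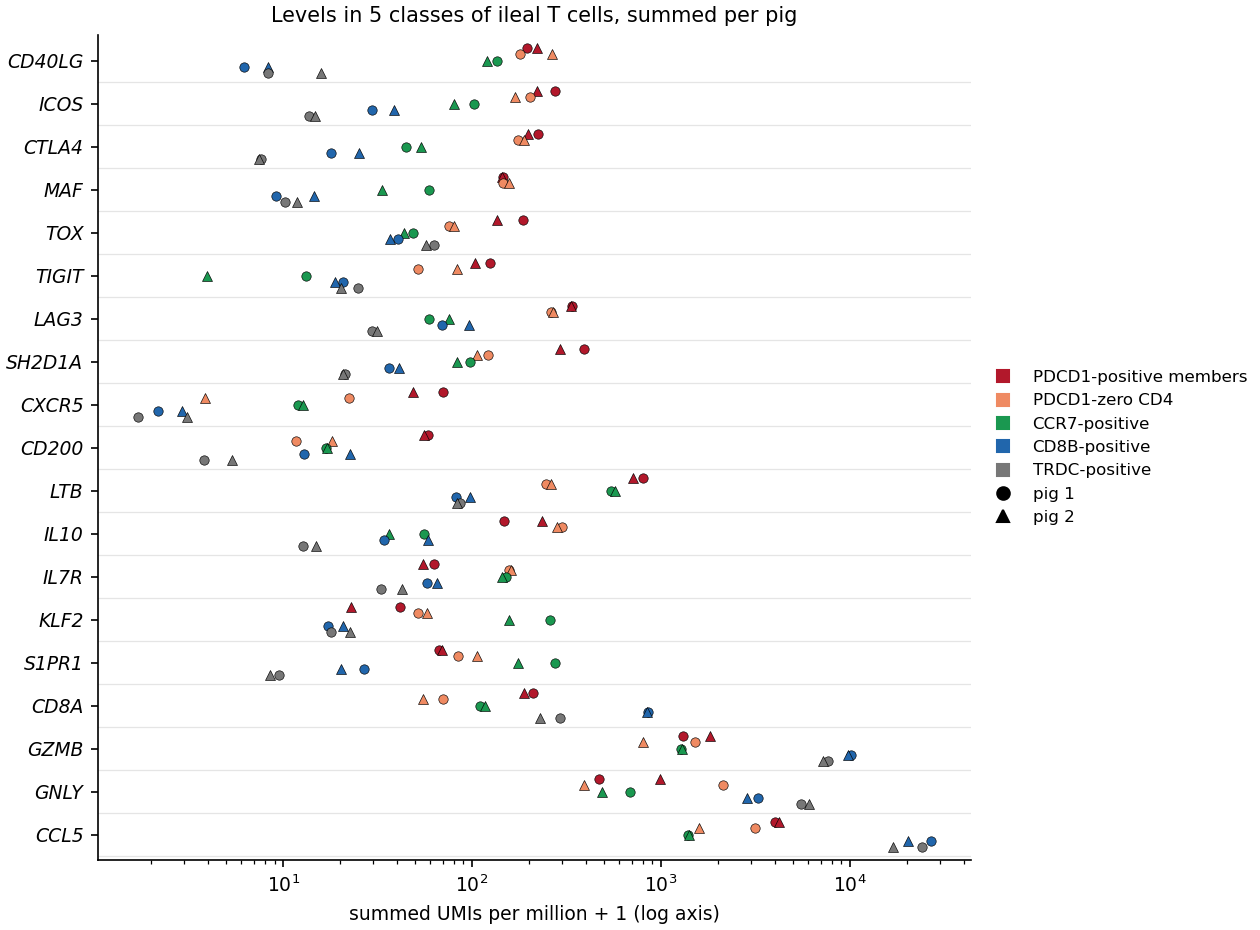
Summed CPM plus 1 (log axis) of 19 genes in 5 classes of ileal T cells, colour giving the class and shape the pig. Members lie right of CCR7-positive cells for TIGIT, LAG3, CTLA4 and SH2D1A and left of them for KLF2 and S1PR1, while for CD40LG, ICOS and MAF they lie beside PDCD1-zero CD4 cells.

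Against PDCD1-zero CD4 T cells, the closest comparison, few genes differed. Members were higher in 8 of 7702 genes (0.104%) and lower in 11 (0.143%), against 37 and 69 with pig as a replicate block (20 and 36 with the block and without the library labelled whole ileum of pig 1). The tissues were not evenly represented: PP gave 311 and 268 of the 1104 members but 52 and 47 of the 288 PDCD1-zero CD4 T cells, and non-PP 57 and 96 against 31 and 46. Without the library labelled whole ileum of pig 1 only 1 higher gene and none of the lower remained past the threshold, and without PP of pig 2 the counts were 2 and 1. Within PP alone 1 was higher and 2 were lower. Within non-PP alone none of 3051 genes tested passed in edgeR, and 146 had an unadjusted p under 0.05. That share is no larger than a threshold of 0.05 gives without any difference.

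The gene that stayed higher without either of those libraries was ENSSSCG00000031023, which carries no symbol in the annotation used. It stood at 738 and 633 CPM in members and 53.5 and 82.5 in PDCD1-zero CD4 T cells (log2 3.24 ± 0.26, adjusted p = 9.56e-05), and at 32.9 and 26.4 in CCR7-positive cells. It had a UMI in 37.8% of members (3.51% to 45.9% over the ileal libraries), 7.29% of PDCD1-zero CD4 T cells and 30.6% of the B cell background, so it was not confined to T cells. SH2D1A was 391 and 289 in members against 120 and 105 (1.5 ± 0.18, adjusted p = 0.0024), and LTB 802 and 706 against 246 and 262 (1.47 ± 0.14, adjusted p = 0.000335). In both pigs the members stood above the comparison cells for these genes. Without PP of pig 2 (1.42 and 1.62) or the library labelled whole ileum of pig 1 (1.36 and 1.5) neither passed, LTB also did not pass without non-PP of pig 2 (1.37), and within non-PP alone the differences were −0.16 and −0.27. SAMD11, TRIB1, GYPC and RAE1 were also higher, by 3.64, 1.30, 1.22 and 1.18, as was CD8A. SAMD11, with 112 UMIs in members and 2 in the comparison cells (ratio 13.95, 95% counting interval 3.77 to 117), passed in only 1 of the 6 fits that left out a library (3.20 to 4.27 in the others), and not with DESeq2, thinned cells, doublets removed or free RNA subtracted. TRIB1 was lost without either PP or either whole ileum library (1.16 to 1.39), with doublets removed (1.25) and among members with a CD4 UMI (1.17). GYPC did not pass without PP of pig 2 (1.10) or the library labelled whole ileum of pig 1 (1.21), nor RAE1 without these or non-PP of pig 2 (1.12 to 1.20).

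CD8A, the CD8 α chain, was 209 and 187 CPM in members and 69.5 and 54.1 in PDCD1-zero CD4 T cells (log2 1.58 ± 0.20, adjusted p = 0.0037). The comparison cells had been chosen on CD4 and the members had not, and among members with a CD4 UMI the difference was 0.76 and did not pass, as it did not without the library labelled whole ileum of pig 1 (1.48). Lower in members were IL7R, the interleukin-7 receptor of resting T cells, at 61.5 and 53.8 against 155 and 159 (−1.54 ± 0.18, adjusted p = 0.00229), and CCR9, the receptor that draws T cells to the small intestinal epithelium, at 47.6 and 70.6 against 136 and 168 (−1.48 ± 0.22, adjusted p = 0.0165). IL18R1 (−1.44), PDE4D (−1.07), UBALD2 (−0.97), CD52 (−0.92), CTSC (−0.80), RESF1 (−0.79) and ENSSSCG00000036618 (−1.36), which has no symbol, were lower too. None of these lower genes passed without the library labelled whole ileum of pig 1, where the values ran from −1.55 (IL18R1) to −0.73 (RESF1). With sums per library and library as a block UBALD2 (−0.87) and CD52 (−0.61) did not pass.

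Beside SH2D1A and LTB, which passed, other genes of the helper program did not pass between the members and PDCD1-zero CD4 T cells. CD40LG was 193 and 220 CPM in members and 179 and 265 in PDCD1-zero CD4 T cells (log2 −0.20 ± 0.24, adjusted p = 0.856). ICOS was 273 and 219 against 201 and 168 (0.32 ± 0.17, adjusted p = 0.594), CTLA4 223 and 197 against 174 and 188, and MAF 144 and 143 against 144 and 156. BCL6 stood at 38.9 and 47.9 against 29.4 and 51.2. None of the 15 transcription factors passed, with a median log2 difference of 0.26 against 0.01 over all genes. TOX (0.95 ± 0.21, adjusted p = 0.0978) and CXCR5 (69.1 and 47.9 against 21.4 and 2.85, log2 2.15 ± 0.55, adjusted p = 0.191) passed with pig as a replicate block and with no filter on low counts. Neither was called with sums per library and library as a block. The comparison cells were chosen on CD4, and TOX also passed when only members with a CD4 UMI were summed (1.11). Of the other lists, 1 of 9 help genes (LTB) and 1 of 7 SLAM genes (SH2D1A) rose, 1 of 21 positioning genes (CCR9) and 1 of 7 naive genes (IL7R) fell, and CD8A was the only one of 12 cytotoxic genes past the threshold. No gene passed in the T cell receptor (11 tested), costimulatory (12), regulatory T cell (9), other helper lineage (9), early activation (14), interferon (12) or replication (11) lists. The same holds for the lists of B cells (9), antibody-secreting cells (7), epithelium (7), myeloid cells (10), innate lymphoid and γδ T cells (7), and stroma and vessels (6).

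Members of PP and members of non-PP were compared per library. LTB, SH2D1A, CXCR5, CD200, CXCR4 and CD69 were among the genes higher in PP members, while 3 of 13 follicular transcription factors and 2 of 8 help genes passed in that direction. Of 11 cytotoxic genes 7 were higher in non-PP members. Of 4574 genes tested over the members of each library, 67 were higher in PP (1.46%) and 97 lower (2.12%). The counts were 67 and 91 with pig as a replicate block, 137 and 156 with the block and without the library labelled whole ileum of pig 1, and 69 and 76 without it and with no block. That library entered the fit through the spread and the low-count filter (3949 genes tested without it).

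LTB was far apart in the members of the 2 tissues. It was 869 and 939 CPM in PP members, 16.4 and 44.0 in non-PP members and 934 and 750 in whole ileum members (PP against non-PP, log2 4.71 ± 0.34, adjusted p = 3.44e-05). The CD79B-positive, CD3E-zero cells of the same libraries held LTB at 591 and 889 in PP and at 447 and 581 in non-PP, where they numbered only 28 and 65. Free RNA, read from barcodes too low in UMIs to be cells, held LTB at 459 and 645 CPM in PP and 37.1 and 47.2 in non-PP, so it moved with the members. With 10% of each library's UMIs taken off as free RNA the difference was 4.86 and still passed. SH2D1A was 463 and 378 in PP members, 71.1 and 68.0 in non-PP and 378 and 279 in whole ileum (2.48 ± 0.27, adjusted p = 0.000537). CXCR5 was 71.3 and 65.2 in PP, 0 and 4.00 in non-PP and 85.9 and 46.4 in whole ileum (4.64 ± 0.78, adjusted p = 0.00636). With 108 UMIs in PP and 1 in non-PP the ratio of CXCR5 was 29.8, with a 95% counting interval of 5.23 to 1186. In non-PP a single member of 96 had a CXCR5 UMI and none of 57, which allows a share with a UMI of up to 5.26% in the latter. For these 3 genes no PP library overlapped a non-PP library, and the whole ileum members lay with PP.

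The receptors CD200, TIGIT, CXCR4, CD69, CXCR6 and ITGB2 were also higher in PP members. CXCR4, known for placing germinal centre cells in the dark zone, was 916 and 754 CPM in PP members, 159 and 260 in non-PP and 754 and 818 in whole ileum (log2 1.86 ± 0.25, adjusted p = 0.00185). CD69, which keeps T cells from leaving tissue, was 765 and 822 against 192 and 220, and 916 and 818 in whole ileum (1.83 ± 0.22, adjusted p = 0.00105). CD200, an inhibitory ligand of follicular helpers, was 65.9 and 75.9 against 0 and 8.0 (3.75 ± 0.64, adjusted p = 0.00669), a ratio of 15.2 with a 95% counting interval of 4.10 to 127 for its 2 UMIs in non-PP. All 3 were higher in both PP libraries than in either non-PP library. Free RNA moved the same way, with CXCR4 at 374 and 416 CPM in PP and 123 and 148 in non-PP, and CD69 at 290 and 309 against 136 and 219. Of 13 transcription factors tested TOX (1.58), ID3 (2.17) and POU2AF1 rose and none fell, and of 8 help genes LTB and TNF (2.55) rose. TOX did not pass without PP or non-PP of pig 1 (1.40 in both fits), ID3 without non-PP of pig 2 (1.52), TNF without PP or non-PP of pig 1 (2.32 and 2.15), and TIGIT (1.44) without PP of pig 1 (1.42) or non-PP of pig 2 (1.34). CXCR6 did not pass without non-PP of pig 1 (1.95) or of pig 2 (1.75) or with DESeq2 (1.83), nor ITGB2 without non-PP of pig 2 (1.37). LTB, SH2D1A, CXCR5, CD200, CXCR4 and CD69 passed in each fit that left out 1 library. Where such a fit left PP or non-PP with 1 library, that library was assumed to vary like those of the other groups. FOS, JUN and DUSP1, genes of early activation and of tissue handling, were higher in PP by 1.74, 1.16 and 1.45, whereas DUSP4 and TNFAIP3 were lower by 1.44 and 1.19. Of these, JUN did not pass without either PP library or non-PP of pig 2 (1.00 to 1.18), DUSP4 without PP or non-PP of pig 2 (−1.24 and −1.05) and TNFAIP3 without PP of pig 2 (−1.001).

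Of the 10 genes with the largest fitted difference towards PP, 5 had no UMI in either non-PP library, so that their order was set by the fit and not by counts. Against a floor of 3 UMIs over both non-PP libraries (6.93 CPM), GPX3 was at least 6.83-fold higher in PP members, POU2AF1, a coactivator of lymphocyte octamer factors, at least 6.83-fold, TENT5A at least 7.70-fold, GPR160 at least 4.86-fold and AP1S3 at least 4.25-fold. These folds are bounds against that floor alone, and the lower ends of the 95% counting intervals of the ratios ran from 3.45 (AP1S3) to 5.99 (TENT5A). Each of these 5 lost its call in at least 1 fit that left out a library. The others were LTB, CXCR5, CD200, GRHPR (log2 3.24, with 2 UMIs in non-PP) and SERHL2 (3.07), GRHPR not passing without PP of pig 1 (3.18) or non-PP of pig 2 (3.0). ENSSSCG00000031023 was 749 and 889 CPM in PP, 38.3 and 68.0 in non-PP and 927 and 536 in whole ileum (3.79 ± 0.35, adjusted p = 0.00019).

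Helper genes that did not pass lay closer together. CD40LG was 194 and 211 CPM in PP members and 98.5 and 188 in non-PP (log2 0.35 ± 0.27, adjusted p = 0.619). ICOS was 313 and 234 against 137 and 148 (0.82 ± 0.23, adjusted p = 0.0815). Its libraries did not overlap, but the share of all tested genes without overlap is not given here, so this is a description. CTLA4 was 240 and 229 against 164 and 128 (0.58 ± 0.23, adjusted p = 0.255), and MAF 165 and 171 against 104 and 112 (0.51 ± 0.24, adjusted p = 0.334). BCL6 overlapped, at 42.8 and 41.0 in PP and 32.8 and 64.0 in non-PP.

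Of 11 cytotoxic genes tested 7 were lower in PP members and none higher, with a median of −1.99 against −0.01 over all genes. GZMB was 374 and 884 CPM in PP members, 3497 and 4926 in non-PP and 2012 and 1222 in whole ileum (log2 −2.85 ± 0.38, adjusted p = 0.00185). CCL5 was 2532 and 2414 against 12221 and 9773 (−2.28 ± 0.19, adjusted p = 0.000105), and PRF1, the pore-forming perforin, 13.2 and 42.5 against 142 and 140 (−2.54 ± 0.42, adjusted p = 0.0054). GNLY, GZMK, NKG7 and CTSW were lower by 3.23, 2.04, 1.99 and 1.55. CD8A had a UMI in 31.5% and 26.9% of PP members and in 42.1% and 42.7% of non-PP members, and the part of such cells in these differences was not tested. CCR9 (37.3 and 33.4 against 131 and 132, −2.00 ± 0.39, adjusted p = 0.015), the integrin ITGAE that binds epithelium (67.0 and 66.7 against 131 and 200, −1.44 ± 0.26, adjusted p = 0.00975), ITGB7 (−1.26), CXCR3 (−1.30) and IL7R (−1.29) moved the same way. CD96 and CD226 of the costimulatory list, SLAMF7 of the SLAM list and ENTPD1 of the regulatory list had differences of −2.29, −2.29, −2.63 and −2.57. GZMB, CCL5, PRF1, GNLY and NKG7 passed in each fit that left out 1 library. CCR9 did not pass without PP of pig 1 (−2.06) or non-PP of pig 2 (−2.00), nor ITGAE without the latter (−1.10). GZMK did not pass without PP of pig 1 (−1.74) or non-PP of pig 2 (−1.78), and CTSW without PP of pig 2 (−1.32). The calls of CXCR3 and IL7R were lost in all 4 fits without a PP or a non-PP library (−1.32 to −1.21 and −1.43 to −1.15) and with DESeq2 (−1.31 for each), and that of CXCR3 also with pig as a replicate block (−1.26). ITGB7 did not pass without PP of pig 1 or either non-PP library (−1.26 to −1.001). CD226 was lost without either PP library, non-PP of pig 1 or the library labelled whole ileum of pig 1 (−3.04 to −1.78), and SLAMF7 without either PP library, non-PP of pig 2 or that library (−2.81 to −1.19). CD96 did not pass without PP or non-PP of pig 2 (−1.87 and −2.30), nor ENTPD1 without PP of pig 1 or non-PP of pig 2 (−2.08 and −1.69).

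Free RNA of cytotoxic cells differed between the tissues as well. It was read from CD79B-positive, CD3E-zero cells, called B cells here, of which non-PP had only 28 and 65. Those were deeper than non-PP members (medians of 3905 and 4160 UMIs against 2553 and 2401.5), and the shares below were not matched for depth. Their antibody-secreting cell genes summed to 31688 and 35277 CPM, against 6040 and 5213 in PP, so the 2 tissues did not give like background cells. B cells of non-PP held GNLY at 337 and 2647 CPM, against 1489 and 2705 in non-PP members, and B cells of PP held it at 81.0 and 221 against 263 and 220. A GNLY UMI was found in 98.5% of the B cells of non-PP of pig 2 and in 93.8% of the members there, so GNLY was not read as expressed by members. By share of cells with a UMI, GZMB and CCL5 did not stand above background there either, with GZMB in 93.8% of both classes and CCL5 in 93.8% of B cells and 92.7% of members, while in non-PP of pig 1 GZMB was in 60.7% of B cells and 86.0% of members and CCL5 in 96.4% and 94.7%. PRF1 was in 0% and 12.3% of B cells of non-PP and in 26.3% and 21.9% of members. By summed level these 3 genes stood higher in members than in B cells of the same library: GZMB was 248 and 1749 in B cells of non-PP against 3497 and 4926 in members, CCL5 640 and 1811 against 12221 and 9773, and PRF1 0 and 46.6 against 142 and 140. After 10% of each library's UMIs were taken off as free RNA, 63 genes were higher and 72 lower in PP, and of the genes named here GNLY (−2.75), ID3, CD226, CXCR3 and BCAM no longer passed.

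**Figure D4:**
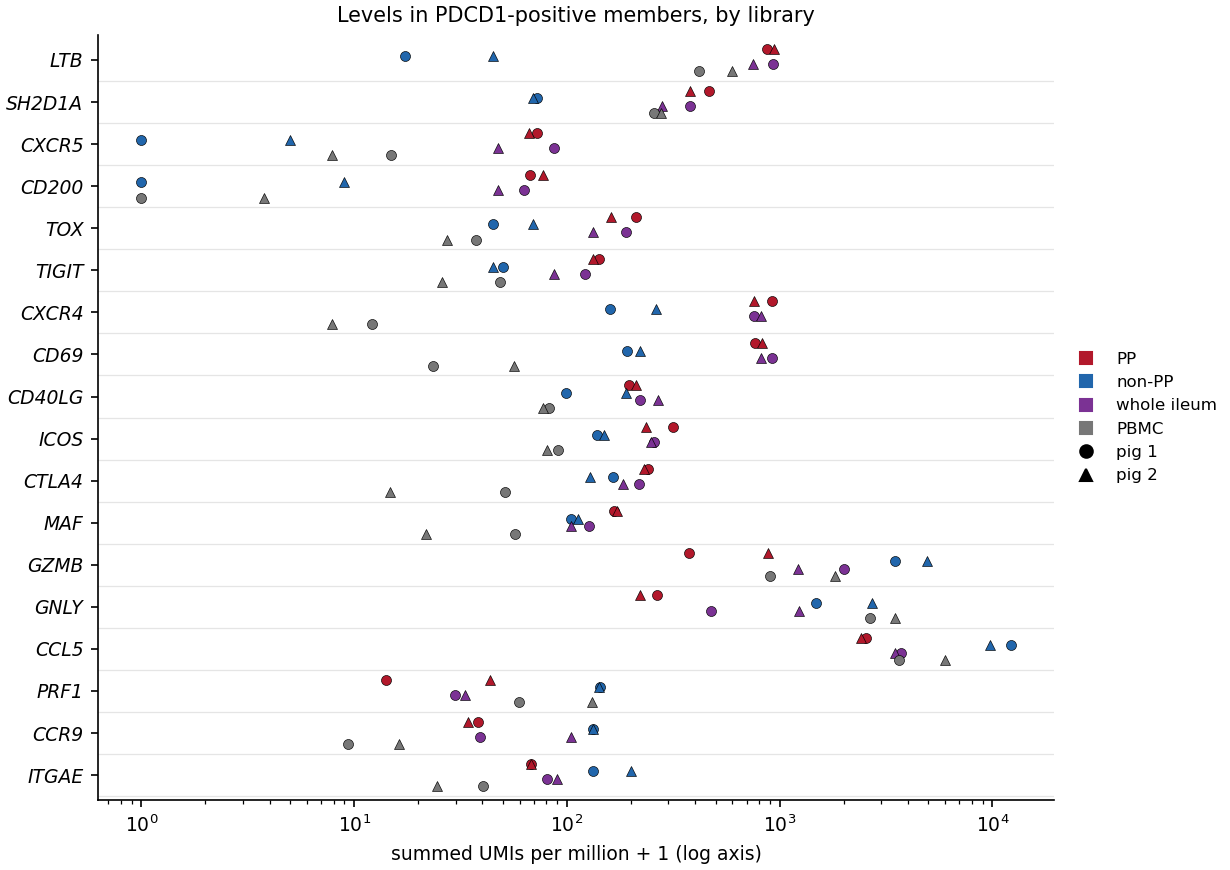
Summed CPM plus 1 (log axis) of 18 genes in the members of each library, colour giving the tissue and shape the pig. PP and whole ileum members lie right of non-PP members for LTB, SH2D1A, CXCR5, CD200, TOX, CXCR4 and CD69, and non-PP members lie right of PP members for GZMB, GNLY, CCL5, PRF1, CCR9 and ITGAE.

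Vessel genes carried by few cells were among the largest differences towards non-PP. The 10 largest were LYVE1 (log2 −5.43), CAVIN2 (−5.33), MMRN1 (−4.41), RARRES2 (−3.85), CAV1 (−3.84), BCAM (−3.83), ECSCR (−3.76), IPO11 (−3.63), AHRR (−3.55) and LRRC70 (−3.49). LYVE1 was 235 and 376 CPM in non-PP members and 13.2 and 0 in PP, from 1 cell in each of the 3 libraries that had it. AHRR, a repressor of the aryl hydrocarbon receptor, was spread otherwise: its 6 and 7 UMIs in non-PP lay in 6 members of each library, none of them a cell with LYVE1. The call of AHRR was lost with DESeq2 (−3.69), without non-PP of pig 1 (−3.39) and without whole ileum of pig 2 (−3.53). Without the library labelled whole ileum of pig 1, RARRES2, CAV1, ECSCR and LRRC70 did not pass (−3.86 to −3.50). With pig as a replicate block RARRES2 (−3.91) and BCAM (−4.02) did not pass. BCAM also lost its call with DESeq2 (−4.10), with doublets removed (−3.84) and without whole ileum of pig 2 (−3.83). Leaving out the members with a UMI of a stroma or vessel gene (1 of 57 and 5 of 96 in non-PP, 36 of 311 and 22 of 268 in PP) left 61 genes higher and 66 lower. Genes of other cells had single carriers elsewhere too. Of 521 CST3 UMIs in PP of pig 2, 456 were in 1 member and of 276 in pig 1, 142 were in 1 member, and CST3 was called higher in PP (2.20). Of 1126 UMIs of the antibody joining chain gene JCHAIN in whole ileum of pig 2, 1059 were in 1 member.

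Over whole lists, transcripts of B cells stood at like levels in the members of both tissues. B cell genes summed to 1086 and 1773 CPM in PP members and 1133 and 1753 in non-PP, with CD74 the most abundant, against 10008 and 10018 in B cells of PP. MS4A1 and PAX5 were at 0 in both non-PP libraries. Myeloid genes summed to 417 and 862 in PP and 274 and 260 in non-PP, epithelial genes to 61.5 and 21.2 against 202 and 56.0, and antibody-secreting cell genes to 1210 and 589 against 301 and 592. Innate lymphoid and γδ T cell genes summed to 235 and 153 against 126 and 208. The part of these cells in the differences was not tested.

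Most genes that differed between PP and non-PP members had the same sign in gated T cells without PDCD1, where fewer of them passed. Of the 67 genes higher in PP members, 65 had the same sign in the 4871 gated PDCD1-zero T cells and 16 passed there too, with median log2 differences of 1.89 in members and 1.07 in PDCD1-zero cells. Of the 97 lower, 83 had the same sign and 6 passed, with medians of −1.98 and −0.51. The members' values chose these genes, so the larger size in members is a description. Both contrasts used the same libraries. The share of all tested genes with the same sign in both is not given here, so these counts are a description too. Tested directly as an interaction in edgeR over 7456 genes, no gene had a larger increase in members (0%) and 1 had a larger decrease (0.0134%), while 535 had an unadjusted p under 0.05. That gene was S1PR1, which differed by log2 −0.56 between PP and non-PP members and by 2.63 between PP and non-PP PDCD1-zero cells (difference −3.19, adjusted p = 0.0194). With each library as a block 17 genes were higher and 99 lower, among them TOX (1.60) and LTB (1.59) higher and IL7R (−2.03), CCR9 (−1.67) and GZMB (−1.31) lower.

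FOXP3, which marks regulatory and follicular regulatory T cells, was found in 17 members (1.54%), 9 in pig 1 and 8 in pig 2, too few per pig for the planned test. It was found in 11 of the 288 PDCD1-zero CD4 T cells (3.82%) and in 1.09% of gated PDCD1-zero cells, and without the library labelled whole ileum of pig 1 in 1.76%, 4.804% and 1.14% of the same classes. IL2RA, the high-affinity interleukin-2 receptor chain, was 131 and 132 CPM in FOXP3-positive members and 17.2 and 21.6 in FOXP3-zero members, from 5 and 4 UMIs in the former. CTLA4 was 601 and 330 against 215 and 193, and TNFRSF18 1124 and 957 against 356 and 362. IL10 was 418 and 693 against 140 and 223. CD40LG was 78.4 and 33.0 against 196 and 224, and PDCD1, of which the rule fixed at least 1 UMI a cell, 314 and 330 (12 and 10 UMIs) against 802 and 757. TNFRSF1B, a receptor for tumour necrosis factor, was 601 and 660 against 242 and 263. The other genes of the regulatory list did not go one way: IKZF2 was 78.4 and 132 against 98.0 and 59.5, PRDM1 26.1 and 66.0 against 35.0 and 43.2, and ENTPD1 26.1 and 0 against 18.998 and 32.8, each from at most 4 UMIs per pig in FOXP3-positive members. IL1R2, LRRC32, CCR8 and IKZF4 were at 0 there and at no more than 2 UMIs per pig in FOXP3-zero members. Without the library labelled whole ileum of pig 1, which held 2 of the 9 cells of pig 1, IL2RA was 119 against 18.9 in that pig, CTLA4 506 against 219, TNFRSF18 983 against 322, IL10 447 against 123, TNFRSF1B 536 against 249, and CD40LG 89.3 against 181. In both pigs the FOXP3-positive members were thus higher in IL2RA, CTLA4, TNFRSF18, IL10 and TNFRSF1B and lower in CD40LG.

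In blood the same gate took 81 of 1901 gated T cells in pig 1 (4.26%) and 146 in pig 2 (9.95%), at medians of 3372 and 4021 UMIs. PDCD1 reached 3 or more UMIs in 3 and 4 of them. CXCR5 was 14.0 and 6.90 CPM in these cells, below all but the non-PP libraries of ileum, and CD200 was 0 and 2.76. LTB, at 416 and 595, lay between non-PP and the other ileal members, and SH2D1A, at 254 and 276, did so as well. CXCR4 (11.2 and 6.90) and CD69 (22.4 and 55.2) were lower than in any ileal library, as were CD40LG (81.1 and 75.9), ICOS (89.4 and 80.0) and TOX (36.3 and 26.2). CCR9 (8.39 and 15.2) was below all ileal members.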

How the data were processed

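Raw UMI counts of all barcodes, as deposited, were read for 8 libraries of 4 sequencing runs each, the runs being summed within a library. The authors had made these counts with Cell Ranger against a pig Sscrofa11.1 annotation that they had modified (the submitters' processing notes list Cell Ranger 4.0.6), and their later steps (ambient RNA correction, doublet removal, clustering) were not in them. Of 25880 genes, 17733 had a symbol in the files, 977 received one from a gene name table and 7170 kept an identifier alone. Cells were filtered at the study's stated thresholds on UMIs, genes and mitochondrial share, thinned to the lowest number of UMIs that filter allows for depth checks, and scored for doublets in Python 3.11.15 (doublet rate 0.07, score threshold 0.25), no cell being removed for its score. Members, gene lists and tests were chosen with earlier results of these data known.

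Counts were summed per pig and class (members of PP and non-PP per library) and tested by quasi-likelihood in edgeR 4.0.16 (R 4.3.3) with TMM factors, edgeR's filter on low counts and Benjamini-Hochberg adjustment, calls being made at an adjusted p under 0.05. In the comparisons of classes 5 classes shared the fit. Genes of the gate, with CD4 and CCR7, which defined comparison classes, were left out of counts. The fits were tested on simulated counts with known changes, of which large ones were recovered more often than small ones. Named genes were those of the lists and, per comparison and direction, the 10 with the largest passing difference among genes with a symbol, a mean of at least 20 CPM in either group and the same sign in both pigs or no overlap of libraries. By the labels the same pigs gave every tissue, although the Y-linked UMIs go against the label of whole ileum of pig 1, and pig deviations correlated at 0.128, 0.158 and 0.293 in the comparisons with PDCD1-zero CD4 T cells, CCR7-positive T cells and between tissues, so a fit with pig as a block was run as an alternative beside DESeq2 1.42.0, other factors, no filter, thinning, ambient subtraction and each library left out. Of 236 list genes 222 were found in the files, and a few are counted with their lists but not reported here by name. Intervals and limits at 0 (3 UMIs or cells) cover counting error only. Shares, FOXP3 values and blocked fits without the library labelled whole ileum of pig 1 were added after seeing the data. The FOXP3 comparison was not tested, with fewer than 20 positive cells per pig.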

Additional observations from a re-analysis of the deposited data

Results flagged for a closer look

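S1PR1, the receptor that lets T cells leave tissue, was the gene whose PP to non-PP difference passed a test against that of gated T cells without PDCD1. The difference between the 2 contrasts was log2 −3.19 (edgeR interaction, adjusted p = 0.0194). In members S1PR1 was 74.6 and 57.6 CPM (UMIs of the gene over all UMIs of the members, scaled to 1000000) in PP and 87.6 and 100.05 in non-PP, whereas the PDCD1-zero cells differed by 2.63 towards PP. The PDCD1-zero class of PP held 127 and 128 CCR7-positive cells, and that of non-PP 15 and 27. The part of these cells in the difference was not tested.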

How the results depend on the processing

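Counts of genes higher and lower in members depended on the setting. Against PDCD1-zero CD4 T cells (8 and 11) they were 14 and 31 with DESeq2, 55 and 68 with no low-count filter, 37 and 69 with pig as a replicate block, 17 and 35 with sums per library and library as a block, 283 and 336 against all gated PDCD1-zero cells, 1 and 2 in PP alone and 0 and 0 in non-PP alone, with 23 lower for members with CD4 only; leaving out each library gave 1 to 13 and 0 to 18. Against CCR7-positive T cells (147 and 270) they were 265 higher with no filter, 280 and 441 with pig as a replicate block, 293 higher with library as a block, 78 and 174 thinned, 58 and 151 in PP alone and 0 and 1 in non-PP alone; leaving out each library gave 33 to 189 and 89 to 324. Between PP and non-PP members (67 and 97) they were 152 and 160 with no filter, 39 and 42 thinned and 56 lower with DESeq2; leaving out each library gave 33 to 78 and 48 to 102. With library as a replicate block the interaction gave 17 and 99 in place of 0 and 1. The share difference of 23.1 percentage points ranged from 20.7 to 25.6 as libraries were left out. The causes of these shifts were not tested.

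Some genes changed sign. Against PDCD1-zero CD4 T cells, non-PP alone gave −0.16 for SH2D1A, −0.27 for LTB, −0.0445 for ICOS, −0.29 for CTLA4 and −0.22 for TIGIT. Against all gated PDCD1-zero cells CD8A was −1.23, CTSC 0.0387, CD40LG 1.49 and MAF 1.65. CD40LG, which was not called, was 0.0063 without non-PP of pig 2, 0.0456 thinned, 0.0849 for members with CD4 only and 0.28 in PP alone, with −0.32 to 0.11 as a library or pig was left out, and MAF, also not called, was 0.0739 with CD4 only and 0.15 in PP alone. Against CCR7-positive T cells TOX was −0.27 and ITGB7 0.66 in non-PP alone, LTB was −0.0405 with library as a block, −0.0024 without PP of pig 2 (up to 0.56 with a library or pig left out) and −3.62 in non-PP alone, and CCL5 was −0.88 with CD4 only. Of 147 named gene results, 142 kept direction and side of the threshold with pig as a replicate block, 127 with DESeq2 and 91 without the library labelled whole ileum of pig 1, where 53 lost their call. With 2 pigs, and 57 and 96 members in non-PP, low genes such as IL21 could not be compared.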

Other observations

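TOX2, a factor of the follicular program, and BATF, which cooperates with it, did not pass between PP and non-PP members (adjusted p = 0.204 and 0.142 in edgeR). Their libraries did not overlap, which is a description only, as the share of all tested genes without overlap is not given here. TOX2 was 29.6 and 30.3 CPM in PP members, 5.47 and 4.00 in non-PP, 44.5 and 10.7 in whole ileum and 0 in both blood libraries. BATF was 211 and 287 in PP, 148 and 120 in non-PP and 180 and 161 in whole ileum. IL21 stood at 7.68 and 9.10 in PP, 10.9 and 0 in non-PP and 11.13 and 17.9 in whole ileum, so its libraries overlapped.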
